A study of Mus musculus with 6 samples.

Results

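The resting transcriptome of mouse cerebellar granule neuron (CGN) cultures given only the vehicle DMSO was read from 3 of the 6 RNA-seq libraries of the series, those whose labels name DMSO as the only agent. The other 3 libraries, from cultures exposed to the EZH2 inhibitor GSK-126, were not used here. Per the study's methods, granule neuron progenitors were purified on a Percoll gradient from the cerebella of early postnatal CD1-IGS mice, an outbred stock, plated, and given cytosine arabinoside in culture to stop other cells from dividing. A replicate in culture was made from the pooled cerebella of litters, and male and female mice were used, so each library averages over animals. The labels give neither a day in vitro nor a DMSO concentration. By the study's methods the cultures were collected at DIV5, where DIV counts days in vitro, after a single addition of agent at DIV1 or DIV3. The labels name the tissue as cerebellum and the titles name the cells as CGN. No genetic change or treatment other than these is named for the 3 cultures, which makes them a model of postnatal granule neurons kept apart from their partners in the cerebellum.

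Granule cells are the small glutamatergic neurons of the cerebellar cortex. Their progenitors divide in the external granular layer after birth, leave the cell cycle, extend parallel fibres that contact Purkinje cells, and settle in the internal granular layer, where mossy fibres excite them and Golgi cells inhibit them. Along this path they exchange early receptor subunits and adhesion proteins for mature ones, and the Polycomb enzyme EZH2, which GSK-126 inhibits, places the silencing mark H3K27me3.

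The libraries held 8573045, 8058760 and 8452278 counts on named genes in replicates 1, 2 and 3. At these depths 3 counts, the floor used here for a gene that is not detected, were worth 0.35 to 0.372 CPM, where CPM is a gene's count divided by all gene counts of its library and multiplied by 1000000. Of all reads, 39.1 to 41.3% were assigned to a gene and 44.8 to 46.6% fell on no annotated exon. The libraries were not alike in every respect. Replicate 2 was the highest of the 3 for late granule cell genes and the lowest for astrocyte genes, and replicate 3 was the highest for interferon response genes, so values are given for each library throughout.

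Genes that mark granule neurons were among the well detected ones. Zic1, a zinc finger transcription factor of the granule lineage, stood at 869, 1100.3 and 908 TPM in replicates 1, 2 and 3, where TPM is CPM corrected for exon length and rescaled to the same total. Neurod1, a basic helix-loop-helix factor of postmitotic granule cells, stood at 891, 1117 and 818 TPM. Gabra6, the GABA-A receptor α6 subunit that in the cerebellum is made by granule cells, had 153, 304 and 123 TPM, and Grm4, the presynaptic glutamate receptor mGluR4 of parallel fibres, had 117, 296 and 153 TPM. Slc17a6, the vesicular glutamate transporter VGLUT2, was at 66, 63.5 and 63 TPM and differed little between the libraries, whereas Gabra6 and Grm4 were highest in replicate 2. The markers of other cells were not absent. The water channel gene Aqp4 of astrocytes stood at 1235, 372 and 550.3 TPM, with replicate 1 the highest and replicate 2 the lowest. Gad1, the GABA-synthesising enzyme of inhibitory neurons, stood at 70.5, 46.8 and 58.8 TPM. By TPM the astrocyte filament gene Gfap (2242, 654 and 1517 TPM) and the fibroblast collagen gene Col1a1 (1217, 1382 and 1713 TPM) lay above Zic1 in replicates 1 and 3, so the libraries hold the label's granule neurons together with RNA of glia and fibroblasts. In bulk RNA, fewer cells of a type and less RNA per cell cannot be told apart, so none of these levels is a share of cells.

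In all, 55341 gene symbols were counted, of which 15368 reached 1 CPM in each of the 3 libraries and are called expressed here. Protein-coding genes made up 13121 of these, 59.9% of all protein-coding symbols, and took 95.4, 95.6 and 95.8% of the counts. The other expressed symbols were 1665 long non-coding RNA genes, 255 pseudogenes and 327 of other classes. The counts were spread widely. The 10 most abundant genes held 3.68, 3.16 and 3.02% of the counts, the 100 most abundant 13.6, 12.7 and 12.8%, and 1522, 1478 and 1538 genes were needed to reach 50% of the counts. By mean level, 8816 genes lay between 10 and 100 CPM, 2512 between 100 and 1000 CPM, and 47 at 1000 CPM or above. The genes at 1000 CPM or above took 8.37% of the counts and those between 100 and 1000 CPM took 53.9%.

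The most abundant transcripts by CPM came from mitochondria, from the translation machinery, from neurons, and from extracellular matrix. The cytochrome oxidase gene mt-Co1 was first with 9659, 8169.5 and 6033 CPM, and mt-Cytb followed with 4474, 3837 and 2809.8 CPM. All mitochondrial symbols together took 2.95, 2.34 and 1.7% of the counts, highest in replicate 1 and lowest in replicate 3. Eef1a1 and Eef2, translation elongation factors, had 3167, 2799.9 and 3465 CPM and 1714, 1630.0 and 1887 CPM. Neuronal genes in the first 25 were Nrep (1722, 2843 and 2124 CPM), Gpm6a, a membrane glycoprotein of growing axons (1994, 2083 and 1549 CPM), Fat2, a giant cadherin of parallel fibres (1542, 1595 and 1437 CPM), and Zic1 (1350.2, 1712 and 1459 CPM). Fat2 had the smallest spread among these neuronal genes and Nrep was highest in replicate 2.

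Genes of the extracellular matrix, of glia and of phagocytes shared this top group. The fibrillar collagens Col1a1 (2180.3, 2479 and 3172 CPM), Col3a1 (2238, 2011 and 2829 CPM) and Col1a2 (1956, 2047 and 2453 CPM) and the matrix protein gene Fn1 (1586, 1436 and 2358 CPM) were all highest in replicate 3. Gfap had 2580.4, 754 and 1806 CPM, lowest in replicate 2. Spp1, encoding the secreted phosphoprotein osteopontin, had 909, 1366 and 1954 CPM, and Fth1, the ferritin heavy chain, had 1594, 1026 and 2395 CPM, both highest in replicate 3. Others in the first 25 were mt-Nd5, mt-Nd1, mt-Nd2 and mt-Nd4, the actin gene Actb, the lysosomal genes Ctsb and Psap, the chaperone gene Hsp90ab1 and the non-coding Gm42418. Gm42418 shares nearly all of its exon bases with a gene on the other strand, and Ctsb shares 12.8%. Since the strand setting of the counting is not given in the sources used here, their counts are uncertain. Of the 13 mitochondrial protein genes, mt-Nd3 and mt-Nd4l stayed under 1 CPM, mt-Co2 (5.25, 6.2 and 5.56 CPM), mt-Co3 and mt-Atp6 stayed under 10 CPM, and mt-Atp8 was listed at 0. Parts of the mitochondrial genome have near-identical nuclear copies, and 9.54 to 10.3% of reads in these libraries aligned to more than 1 place and were not counted.

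Expression level went with promoter composition. RefSeq promoter windows of build GRCm38.p6, from 250 bases before to 50 bases after a start, were found for 20593 of the symbols. The median GC content of the window was 46% for the 6016 genes with no count in any library, 57.3% for genes at 1 to 10 CPM, and 64% for the 1979 genes at 100 CPM or more. The GC box letters GGGCGG, on either strand, were in 11.3% of windows of genes with no count and in 71.5% of those at 100 CPM or more. The letters TATAAA went the other way, from 24% to 6.21%. CCAAT differed little, at 39.3% and 36.5%. Shares like these describe letters in a window and name no bound factor.

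**Figure D1:**
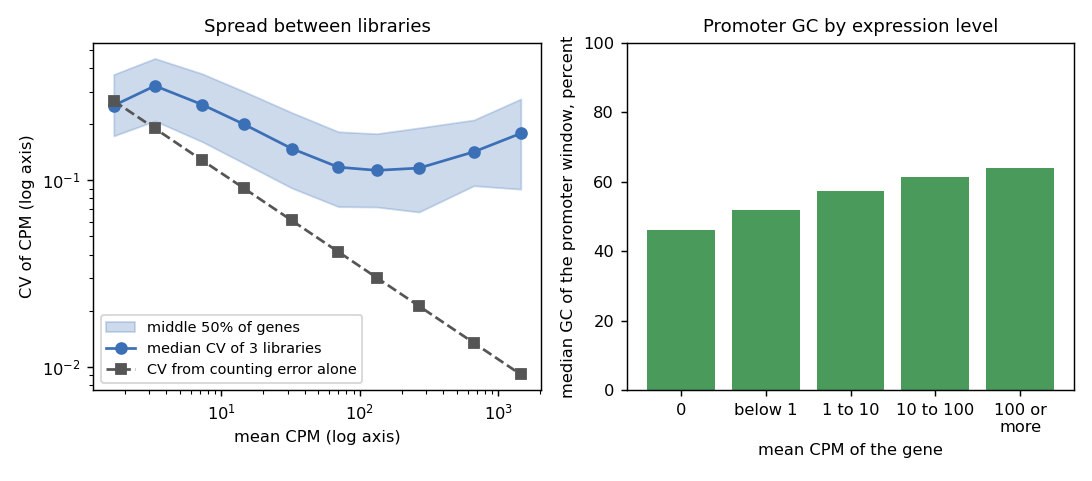
Left: coefficient of variation (CV) of CPM over the 3 DMSO libraries against mean CPM, both on log axes, as the median (blue line) and middle 50% (band) of expressed genes in 10 level bins, beside the CV that counting error alone gives (grey dashes). Right: median GC content, in percent, of the promoter windows of genes grouped by mean CPM, from 46% for genes with no count to 64% for genes at 100 CPM or more.

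The promoters of 4 granule neuron genes are shown because Zic1 and Neurod1 mark the lineage and Gabra6 and Cbln3 its later state. The windows are RefSeq's, on build GRCm38.p6. Each sequence runs 5′ to 3′ on the gene's own strand, with capitals marking the E-box letters CANNTG (the same on both strands), which basic helix-loop-helix factors such as NEUROD1 can bind, and TTGGCA (read as TGCCAA on the other strand), which nuclear factor I proteins can bind. Zic1 lies at chr9:91365719-91366018, minus strand, Neurod1 at chr2:79456587-79456886, minus strand, Gabra6 at chr11:42321023-42321322, minus strand, and Cbln3, a cerebellin of granule cells, at chr14:55884207-55884506, minus strand.
Zic1: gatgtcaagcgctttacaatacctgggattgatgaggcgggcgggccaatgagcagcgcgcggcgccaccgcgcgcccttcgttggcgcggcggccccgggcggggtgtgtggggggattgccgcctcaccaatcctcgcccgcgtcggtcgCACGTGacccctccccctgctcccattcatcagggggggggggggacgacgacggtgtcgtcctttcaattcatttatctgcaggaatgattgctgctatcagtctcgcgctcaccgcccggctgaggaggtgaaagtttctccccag
Neurod1: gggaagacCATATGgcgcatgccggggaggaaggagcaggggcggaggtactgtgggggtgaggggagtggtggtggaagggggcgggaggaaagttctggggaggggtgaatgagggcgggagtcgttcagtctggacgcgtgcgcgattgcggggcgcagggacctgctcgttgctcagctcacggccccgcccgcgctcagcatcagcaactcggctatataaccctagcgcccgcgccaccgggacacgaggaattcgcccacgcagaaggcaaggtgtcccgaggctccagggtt
Gabra6: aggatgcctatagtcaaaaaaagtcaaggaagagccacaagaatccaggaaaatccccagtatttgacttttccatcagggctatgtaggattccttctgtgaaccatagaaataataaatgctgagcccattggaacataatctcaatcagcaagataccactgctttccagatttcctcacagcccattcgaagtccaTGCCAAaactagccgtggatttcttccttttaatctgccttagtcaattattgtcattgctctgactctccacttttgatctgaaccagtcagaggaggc
Cbln3: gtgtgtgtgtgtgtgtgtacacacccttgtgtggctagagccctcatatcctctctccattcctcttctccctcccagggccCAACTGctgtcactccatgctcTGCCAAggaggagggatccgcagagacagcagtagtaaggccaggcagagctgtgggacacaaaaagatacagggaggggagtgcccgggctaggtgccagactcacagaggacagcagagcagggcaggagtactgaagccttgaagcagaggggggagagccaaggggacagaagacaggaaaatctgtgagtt
The windows of Zic1 and Neurod1 were GC-rich, with 65.3% and 66.7% GC and 31 and 26 CpG sites, and those of Gabra6 and Cbln3 held 42% and 57% GC and 2 CpG sites each. Gabra6 and Cbln3 each held TTGGCA, which 13.9% of all windows hold. E-box letters were in the windows of Zic1, Neurod1 and Cbln3 and in 70.0% of all windows, a majority. Of the 20 granule identity genes 16 had a window, and 5 of these held TTGGCA. Of the late granule cell genes 11 had a window, and Gabra6 and Cbln3 were the only 2 to hold it (18.2%). Of the early granule cell genes 5 of 14 held it (35.7%). The late windows had a median of 63.7% GC and 15 CpG sites, so the windows of Gabra6 and Cbln3 do not stand for that list.

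Paralogs within 105 families were compared by TPM. These families hold 572 genes, of which 425 were expressed and 32 had no count. A family's leader is the member with the highest mean TPM, and 103 families had a leader at 1 TPM or more. The leader was the same gene in all 3 libraries in 75 of these and in 2 of the 3 libraries in 22. In 57 families the lowest library of the leader lay above the highest library of the next member, and these are called separated. The leader held a median of 51.3% of its family's TPM, at least 90% in 6 families, and under 50% in 46. Leaders were chosen on these same 3 libraries, so their order is a description. Of the leaders and next members 14 share at least 10% of their exon bases with a gene on the other strand (among them Chrnb2, Htr1b, Adora1, Plxna1, Cacnb4, Kcnj3, Clcn4, Atp1b1, Syt4, Snap47, Sox4, Ccnd1 and Ptbp1), which leaves their counts uncertain.

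Among ionotropic glutamate receptors, the subunits were mixed and their order was not stable. Of the AMPA receptor genes, which carry fast excitation, Gria4 stood at 148, 143 and 100.3 TPM and Gria2, whose edited subunit limits calcium entry, at 96.4, 102 and 70.7 TPM. Gria1 ranged from 47.4 TPM in replicate 2 to 200.3 TPM in replicate 1, where it led the family. Of the NMDA receptor genes, Grin2b, the subunit of young neurons, had 25.1, 22.1 and 19.6 TPM. Grin2c, the subunit of mature granule cells, had 6.37, 24.5 and 11.3 TPM and passed Grin2b in replicate 2 only. Grin2a was lower, at 11.3, 13.8 and 8.21 TPM. Kainate receptor TPM was led by Grik2 (67.8, 78.1 and 46.7 TPM) and Grik5 (60.5, 59.1 and 48.7 TPM), whose ranges overlapped.

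Metabotropic glutamate and GABA receptors had clearer leaders. Grm4 held 52.4% ± 12.2 (SD, n = 3) of the metabotropic glutamate receptor TPM, and its range lay above that of every other member. The GABA-A α6 gene Gabra6 held 61.1% ± 8.24 of the α subunit TPM, whereas the early subunit gene Gabra2 stood at 22.2, 13.1 and 18.1 TPM. Gabrd, the δ subunit of extrasynaptic receptors, stood at 57.2, 133 and 79.6 TPM. The GABA-B genes Gabbr2 and Gabbr1 were equal within their spread, at 107, 159 and 98.5 TPM and 98.3, 150.5 and 100.3 TPM. Among glycine receptor genes Glrb (69.2, 83.9 and 59.5 TPM) lay above Glra2 (52.1, 46.5 and 39 TPM), the α subunit of immature neurons.

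Receptors for other transmitters were mostly carried by 1 gene. Cnr1, the cannabinoid receptor CB1, which acts at parallel fibre terminals, held 99.5% ± 0.233 of its family at 365, 408 and 334 TPM. The nociceptin receptor gene Oprl1 held 98% ± 1.31 of the opioid family, Sstr2 84.2% ± 2.01 of the somatostatin receptors, and Adora1 83.5% ± 6 of the adenosine receptors. Chrnb2 held 79% ± 10.6 of the nicotinic and Chrm3 82.1% ± 2.41 of the muscarinic receptor TPM. No dopamine receptor gene reached a mean of 1 TPM. Serotonin receptors were led by Htr2a at only 10.1, 4.62 and 6.36 TPM, and adrenergic receptors by Adra2c (29.8, 32.9 and 40.2 TPM), close to Adra2a (30.1, 19.2 and 26.7 TPM). Among receptors for growth and guidance cues, the neurotrophin receptor gene Ntrk2 held 75.3% ± 4.8, Ephb1 held 49.1% ± 3.17 of the EphB genes, Plxnb2 held 39.6% ± 0.837 of the plexins ahead of Plxna1, and Notch2 held 46.8% ± 2.02 of the Notch genes. Epha7 and Epha8 exchanged the lead of the EphA genes. Ntrk2 and Notch2, which astrocytes also express, were both highest in replicate 1.

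Of the 19 ion channel families, 16 had the same leader in every library. The voltage-gated potassium channel gene Kcnd2 (Kv4.2), a source of A-type current, held 79% ± 5.39 of the Kv4 TPM at 120.5, 205 and 122 TPM. Kcnc1 (Kv3.1), which permits fast firing, led Kv3 at 156, 258 and 139 TPM. The two-pore leak channel family was led by Kcnk1 (221, 325 and 212 TPM), with Kcnk9 (TASK-3), a standing potassium conductance of mature granule cells, next at 116, 191 and 109 TPM. Kcnk12 of the same family stood at 46.6, 225 and 69.7 TPM. Kcnk1, Kcnk9, Kcnc1 and Kcnd2 all had their highest TPM in replicate 2.

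Hcn2 held 74.2% ± 5.85 of the pacemaker channel TPM and Kcnh1 72.7% ± 2.21 of the ether-à-go-go channels. Cacna1a, the P/Q-type calcium channel of presynaptic terminals, led the calcium channel α1 genes in each library with 129.9, 174 and 101 TPM but held only 30.8% ± 0.959 of them, with Cacna1b next at 82.1, 96.3 and 63.3 TPM. Cacnb3 led the β subunits (53.9% ± 3.28), and Cacna2d3 (60.2, 67.7 and 51.2 TPM) and Cacna2d1 (50.1, 65 and 38 TPM) were close. Of the sodium channel genes, Scn2a (48.2, 71.2 and 43.4 TPM) and Scn8a (47.1, 57.9 and 34.7 TPM) were near equal, and Scn3a and Scn1a stood below 10 TPM. Clcn4 held 33.1% ± 1.03 of the CLC chloride channel TPM, ahead of Clcn6. Inward rectifiers were led by Kcnj3 (65.8, 133 and 79.4 TPM), a G-protein-gated channel of neurons, except in replicate 1, where the astrocyte channel gene Kcnj10 (108, 57.3 and 70.2 TPM) was higher. Ryr2 held 50.1% ± 5.85 of the intracellular calcium release channel TPM and Trpc1 66% ± 5.89 of the TRPC channels. Kcnn2, Kcnma1 and Kcnq5 led the SK, BK and Kv7 families at 28.5 TPM or less in each library, and Kcna1 and Kcna2 exchanged the lead of Kv1.

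**Figure D2:**
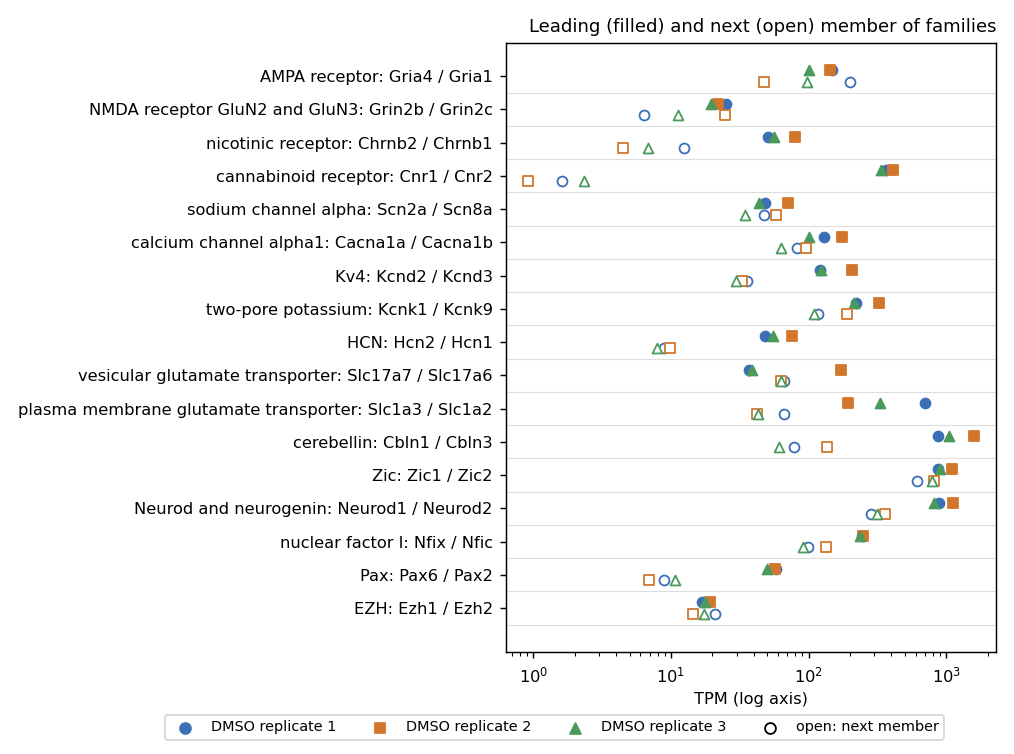
TPM (log axis) of the leading member (filled symbols) and the next member (open symbols) of 17 families in DMSO replicates 1 (circles), 2 (squares) and 3 (triangles). Cnr1, Slc1a3, Cbln1 and Hcn2 stand clear of the next member in every library, whereas Gria4 and Gria1, Grin2b and Grin2c, Slc17a7 and Slc17a6, and Ezh1 and Ezh2 overlap.

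Transporter genes of neurons, glia and meninges were all present. The vesicular glutamate transporter genes changed order. Slc17a7 (VGLUT1), which mature granule cells use, stood at 37.1, 172 and 39 TPM, above Slc17a6 (66, 63.5 and 63 TPM) in replicate 2 and below it in replicates 1 and 3. Slc1a3 (GLAST), the glutamate uptake transporter of astrocytes and Bergmann glia, held 76.9% ± 8.84 of its family at 696, 194 and 331 TPM. Slc6a13, a GABA transporter gene of meningeal cells, stood at 64, 5.47 and 13.1 TPM, beside Slc6a11 at 28.6, 30.2 and 27.9 TPM. The chloride exporter gene Slc12a5 (KCC2) held 57.6% ± 8.28 of the cation-chloride cotransporters at 165, 249 and 155 TPM, ahead of the chloride importer gene Slc12a2. The sodium pump β subunit genes Atp1b2 and Atp1b1 overlapped. Atp2a2 held 99.3% ± 0.482 of the endoplasmic calcium pumps, and the plasma membrane pumps Atp2b1 and Atp2b2 overlapped, with Atp2b2 above in replicate 2.

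At the synapse, Cbln1, a secreted cerebellin that binds neurexins and links parallel fibres to Purkinje cells, held 92.6% ± 1.6 of its family at 871, 1594 and 1051 TPM. Nlgn2, the neuroligin of inhibitory synapses, held 85.3% ± 0.154 of the neuroligins, the smallest spread of any family leader's share. Vamp2 held 73.5% ± 5.37 of the synaptobrevins, and Snap25 held 54.3% ± 12.5 of its family at 264, 646 and 279 TPM, with Snap47 steady at 232, 238 and 232 TPM. Syt4 (529.5, 452 and 425 TPM) lay above Syt11 (346, 316 and 259 TPM) and Syt1 (246, 301 and 208 TPM), the fast calcium sensor of release. Syn1 and Syn2, Sv2a and Sv2b, Rab3c and Rab3a, and Cplx1 and Cplx2 were pairs with overlapping TPM. Of the adhesion genes, Cntn1 and Cntn2 overlapped, and the cadherins Cdh11, a mesenchymal cadherin, and Cdh22 overlapped. Snap25, like Slc17a7, was highest in replicate 2.

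The cytoskeleton and calcium-binding families mixed cell types. Tuba1a, the α tubulin of young neurons, held 75.1% ± 4.88 at 2142, 1549 and 1877 TPM, whereas Tuba4a, an α tubulin of mature neurons, stood at 24.6, 179 and 70.3 TPM. Tubb5 (843, 659.8 and 876 TPM) and Tubb2a (596, 647 and 758 TPM) headed the β tubulins. Calb2 (calretinin), a calcium buffer of granule cells, held 92.5% ± 0.722 of the EF-hand buffers, and Calb1 and Pvalb, buffers of Purkinje cells and interneurons, stood under 14 TPM in every library. Camk2b held 61.1% ± 5.92 of CaMKII, with Camk2a, the forebrain isoform, at 3.72, 3.95 and 5.45 TPM. Calm2 and Calm3 each exceeded 1000 TPM in every library. Ywhae led the 14-3-3 genes (36.5% ± 2.76) and Actb the actins (57% ± 2.25). Stmn3 and Stmn2 headed the stathmins, and Map1b and Mapt headed the microtubule-associated proteins with overlapping TPM. Gfap and Vim, filaments of glia and mesenchyme, led the intermediate filaments, ahead of the neuronal Ina (168, 227 and 219 TPM) and Nefl (103, 206 and 127 TPM).

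Several transcription factor families were led by regulators of the granule lineage. Zic1 held 48.7% ± 1.82 and Zic2 37.4% of the Zic TPM, and Zic2 stood at 609.7, 814 and 786 TPM. Neurod1 held 74.1% ± 1.93 of its family, next to Neurod2 (284, 356 and 312 TPM). Nfix held 48.5% ± 2.71 of the nuclear factor I genes at 245, 247 and 237 TPM. It was the steadiest of these leaders by TPM, though the shares of Zic1 and Neurod1 had a smaller SD. Pax6, which granule progenitors and neurons both express, held 76.4% ± 4.85 of the Pax genes, and Mef2d held 61.4% ± 3.68 of MEF2 but lost the lead to Mef2a when the longest transcript was used. Etv5 (92.8, 74.6 and 102 TPM) led Etv1 (37.4, 74.5 and 37.3 TPM), a factor of mature granule cells, in each library, with the order turned by the longest transcript. Rora held 94.3% ± 2.3 of the ROR genes at 45.3, 37.4 and 35.7 TPM. Hey1 led the Hes and Hey genes (46.1% ± 3.89), Pou3f3 the Brn genes (57% ± 6.22), Lhx1 the Lhx genes (56.7% ± 6.06), and Ebf1 the Ebf genes (51.7% ± 5.38).

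Factors of progenitors, of glia and of recent activity were also present. Sox4, a factor of young neurons, led the Sox genes at 172, 116 and 163 TPM, but 54.6% of its exon bases lie opposite another gene. Sox9 and Sox2, both glial or progenitor factors, had 78, 32.7 and 59.2 TPM and 66.1, 38.6 and 62 TPM, lowest in replicate 2. Id2 (388, 233 and 409 TPM) and Id3 (259, 168 and 320.5 TPM), inhibitors of differentiation, were likewise lowest in replicate 2. Jun held 73.8% ± 3.26 of the Jun genes and Egr1 68.3% ± 11.6 of the Egr genes, with Egr1 at 50.6, 68.4 and 50.5 TPM and Fos at 21.8, 47.1 and 40.1 TPM. Gli1, a target of Sonic hedgehog signalling in dividing progenitors, was at 0, 2 and 7 counts in the 3 libraries, no more than 0.588 TPM, whereas Gli3 and Gli2 stood at 14.3, 5.82 and 10.2 TPM and 8.46, 6.41 and 6.41 TPM. Bcl11a and Bcl11b stayed below 1 TPM. Myc and Mycl, Tcf3 and Tcf4, Nr4a1 and Nr4a2, and Meis3 and Pbx2 were pairs whose TPM ranges overlapped, and Foxp4 led Foxp1 only with the union of exons as the gene length.

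The series asks what EZH2 and the H3K27 demethylases do in these cells. Ezh2 stood at 21, 14.6 and 17.3 TPM and Ezh1, its counterpart in non-dividing cells, at 16.7, 19.3 and 17.6 TPM, so neither was ahead by more than the spread between libraries. Of the H3K27 demethylases, Kdm6b held 63% ± 2.21 of the family at 72.7, 68.9 and 63.8 TPM, above Kdm6a (36.7, 32.5 and 28 TPM). Dnmt3a (55.9, 75.9 and 56.3 TPM) and Dnmt1 (47.9, 54.4 and 56 TPM) were close, and Tet3 led the TET genes (54.4% ± 3.7). Elavl3 held 53.5% ± 5.89 of the Elavl genes and Celf4 56.7% ± 1.32 of the Celf genes. Rbfox3 (NeuN), a marker of mature neurons, ranged from 169 to 351 TPM and overlapped Rbfox2. Ptbp1, a splicing repressor that neurons lose, led the Nova and PTB genes at 132, 112 and 140.5 TPM, ahead of the neuronal Ptbp2. Ccnd1 and Ccnd2, cyclins of dividing progenitors, had 87.2, 101 and 158 TPM and 73.5, 71.7 and 119 TPM, both highest in replicate 3.

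The stage of the cultures was read from 16 pairs of genes that replace each other during neuronal development, as log2 of the TPM ratio of the later over the earlier gene in each library. Both genes of a pair were read in bulk RNA, which also holds RNA of glia and fibroblasts. The part of those cells in a ratio was not tested. The later gene was ahead in all 3 libraries in 7 pairs, the earlier gene in 4, and 5 pairs had no common direction. By mean log2 ratio the widest margin of the later gene was for the sodium channels, with Scn2a over Scn3a at 3.02, 4.36 and 3.53 and Scn8a over Scn3a at 2.99, 4.07 and 3.20 on the log2 scale. For GABA-A receptor subunits the log2 ratios were 2.79, 4.54 and 2.77 for Gabra6 over Gabra2. Slc12a5 over Slc12a2, the KCC2 to NKCC1 exchange that sets the chloride gradient, had a log2 ratio of 1.58 ± 0.43 (SD, n = 3). Rbfox3 over Elavl4 (1.36 ± 0.45) and Map2 over Dcx (1.13 ± 0.32) also had the later gene ahead. In each of the 7 pairs with the later gene ahead replicate 2 had the highest log2 ratio.

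In other pairs the earlier gene was ahead or the libraries differed in sign. Grin2a over Grin2b had log2 ratios of -1.14, -0.68 and -1.25, so the earlier NMDA subunit was ahead in each library, and Tubb4a over Tubb5 had -2.77, -1.68 and -2.26. Ptbp2 over Ptbp1 (-1.41 ± 0.31) and Nfia over Nfib (-0.62 ± 0.26) were the other 2 pairs with the earlier gene ahead on the log2 scale. Grin2c over Grin2b had -1.98, 0.15 and -0.79, and Slc17a7 over Slc17a6 had -0.83, 1.44 and -0.69. Both log2 ratios were above 0 in replicate 2 only, and each spanned over 2 log2 units between libraries. Ezh1 over Ezh2 and Cntn1 over Cntn2 stayed within 0.57 log2 units of 0 in each library. Over all 16 pairs replicate 2 had the highest ratio in 13.

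**Figure D3:**
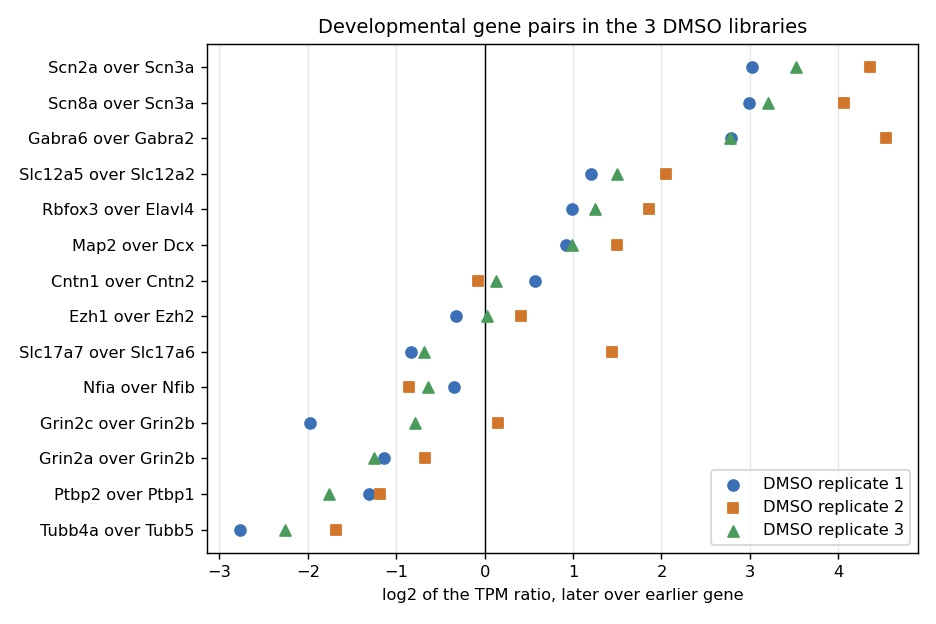
Log2 of the TPM ratio of the later over the earlier gene for 14 of the developmental pairs, 1 symbol per DMSO library, with the line at 0 marking equal TPM. Pairs at the top, such as Scn2a over Scn3a, lie to the right of 0 in every library, Tubb4a over Tubb5 lies to the left, and replicate 2 (squares) is the rightmost symbol in most pairs.

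The 20 genes listed as late granule cell genes, receptors, channels and synaptic genes of the mature state, took 0.308, 0.582 and 0.312% of the counts in replicates 1, 2 and 3. All 18 of those expressed were highest in replicate 2, where replicate 2 was the highest for 33.5% of all 15368 expressed genes. Their median log2 ratio of replicate 2 over the mean of the other libraries was 0.84, against -0.02 over all expressed genes. Slc17a7 was at 54.6, 253 and 59.4 CPM, Snap25 at 488, 1198 and 534 CPM, and Grm4 at 191, 484 and 258 CPM. Grin2c was at 8.75, 33.8 and 16.1 CPM, Gabrd at 44.9, 105 and 64.6 CPM, and Etv1 at 136, 271 and 139.8 CPM. Gabra6 was at 104, 207 and 86.6 CPM and Cbln3 at 105, 182 and 83.8 CPM. Replicate 2 stood above both other libraries for each of these, most of all for Slc17a7. Margins were smaller for Nptxr, the neuronal pentraxin receptor (204, 391 and 249 CPM), Wnt7a, a factor that granule cells secrete (38.3, 50.9 and 27.4 CPM), and Camk4, a nuclear calcium-dependent kinase (127, 162 and 103 CPM). Others (Kcnk9, Kcnc1, Slc12a5, Grin2a, Chn2 and Olfm3) lay between 20.9 and 666 CPM. Car4 stayed at or below 1.86 CPM, and Ppp1r17, a Purkinje cell gene in adults, had a count in 1 library only (1, 0 and 0 counts).

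The early list did not share this order. The 20 early granule cell genes took 0.309, 0.305 and 0.336% of the counts, and replicate 2 was highest for 6 and lowest for 9 of the 18 expressed, against 33.5 and 36.4% of all expressed genes. Dcx, a microtubule protein of migrating neurons, was at 265, 192 and 251 CPM, Tubb5 at 765, 600.1 and 823 CPM, and Sox11 at 70.1, 36.1 and 57.9 CPM, each lowest in replicate 2. Cntn2 (TAG-1), a surface protein of newly postmitotic granule cells, was at 400.3, 492 and 371 CPM, and Ptch1 and Boc, components of Sonic hedgehog reception, at 102, 143 and 97.8 CPM and 116, 167 and 111 CPM, each highest in replicate 2. Mycn had 9.33, 14.3 and 17.9 CPM, and Ccnd1 (112, 129.8 and 210.2 CPM) and Ccnd2 (189, 184 and 315 CPM) were highest in replicate 3. Atoh1, the factor that defines dividing granule progenitors, had 0, 0 and 6 counts, and Gli1 0, 2 and 7, which are at or near the floor. The remaining early genes (Gli2, Nhlh1, Nhlh2, Nfib, Sox4, Sema6a, Barhl1, Cdkn1b and Tlx3) lay between 2.98 and 424 CPM, with no library highest throughout.

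Most granule identity genes were also highest in replicate 2. The 20 identity genes took 0.632, 0.853 and 0.669% of the counts and 15 of them were highest in replicate 2, against 33.5% of all expressed genes. Pax6, Slc17a6, Reln, Barhl1 and Mab21l1 were highest in another library. Some of these also stand in the late list. Against the summed CPM of Zic1, Zic2, Neurod1, Neurod2 and Pax6 in the same library, the late list stood at 1.06, 1.58 and 0.984. Replicate 2 was then 1.55 times the mean of the other libraries, where it was 1.88 times without that scaling. The astrocyte list stood at 3.54, 1.12 and 2.33, and the early list at 1.06, 0.83 and 1.06 on the same scale. This scaling was chosen after the values were seen.

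Genes of cell division and of neuronal activity took small shares of the counts, though most members of each list were expressed. The 24 cell cycle genes took 0.0924, 0.0662 and 0.0832% of the counts, with Mki67 at 117, 65.3 and 62.6 CPM and Top2a at 129, 73.5 and 106 CPM, and 14 of the 23 expressed were lowest in replicate 2, as were 36.4% of all expressed genes. Atoh1 and Gli1, which mark dividing granule progenitors, were at or near the floor in the same libraries. The 17 immediate early genes took 0.027, 0.0396 and 0.0357%. Replicate 1 was the lowest for 11 of the 14 expressed, against 32.7% of all expressed genes, and replicate 2 for none, against 36.4%. Npas4, a factor induced by calcium entry in neurons, had 4, 66 and 7 counts in replicates 1, 2 and 3, and Bdnf had 12, 49 and 28. Both were highest in replicate 2, at low counts.

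Non-neuronal RNA made up a visible part of the libraries. The 80 markers of glial, immune, vascular, meningeal and choroid cells together took 2.22, 1.5 and 2.28% of all gene counts, and 72 of them were expressed. These lists differ in size and in how abundant their genes are in their own cells, so the percentages are not shares of cells. The 16 astrocyte and Bergmann glia genes took 1.03, 0.411 and 0.739% and all 16 were expressed. All 16 were lowest in replicate 2, as were 36.4% of all expressed genes, with a median log2 ratio of replicate 2 over the others of -0.97. Gfap was at 2580.4, 754 and 1806 CPM, Aqp4 at 2099.7, 634 and 968 CPM, and Slc1a3 at 1622, 452 and 798 CPM. Apoe, a lipid carrier, was at 1435, 885 and 1674 CPM, and Fabp7, a fatty acid binding protein of radial and Bergmann glia, at 705, 354 and 586 CPM. Gdf10, a Bergmann glia marker, stayed at 10.2, 5.96 and 9.82 CPM. The library with the most late granule RNA was thus the one with the least astrocyte RNA, and the part of either in the other was not tested.

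Fibroblast and meningeal genes rivalled the astrocyte list. The 10 genes took 0.904, 0.86 and 1.18% of the counts, of which Col1a1, Col1a2, Col3a1 and Fn1 made up most. The proteoglycan genes Dcn (282, 149 and 226 CPM) and Lum (116, 78.9 and 98.3 CPM) were lowest in replicate 2, and Slc6a13 (50.7, 4.34 and 10.8 CPM) and Ptgds (35.6, 6.7 and 8.87 CPM), both meningeal, were highest in replicate 1. All 44 genes named as collagen chains by number took 1.06, 1.02 and 1.36%. The members of this list did not keep 1 ratio between libraries, since the collagens were highest in replicate 3 and the meningeal transporter in replicate 1.

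Other non-neuronal cells left less RNA. The 14 microglia and macrophage genes took 0.0792, 0.0588 and 0.109%, highest in replicate 3 for 9 of the 13 expressed, against 30.8% of all expressed genes. C1qa, a complement gene, was at 82.8, 80.9 and 147 CPM, Tyrobp, a signalling adaptor of myeloid cells, at 11.6, 16.4 and 65.5 CPM, and Cx3cr1, the fractalkine receptor, at 46.4, 23.9 and 23.4 CPM. The homeostatic microglia genes Tmem119 (10.5, 13.7 and 9.94 CPM) and P2ry12 (4.2, 1.36 and 3.9 CPM) were low, and Trem2 was listed at 0. So were Kif11 of the cell cycle list and Egr2 of the immediate early list. Whether a listed 0 means absent RNA was not tested. The 14 oligodendrocyte lineage genes took 0.101, 0.0612 and 0.0973%, from the precursor gene Pdgfra (135, 68.2 and 85.2 CPM), which fibroblasts share, to the myelin genes Mbp (216, 174 and 323 CPM) and Mog (9.1, 6.95 and 10.8 CPM), with Olig1 at 23.6, 29.5 and 24.9 CPM and Olig2 at 9.56, 12.2 and 5.32 CPM. The 10 mural genes took 0.0721, 0.0912 and 0.118%, led by Acta2 (277, 416 and 507 CPM), a smooth muscle actin that myofibroblasts share, with Pdgfrb at 96.7, 100.4 and 122 CPM and Rgs5 at 28.7, 13.9 and 52.9 CPM. Endothelial genes came last with 0.00946, 0.00635 and 0.00793%: Cldn5 had 4, 0 and 2 counts and Pecam1 15, 9 and 18, whereas Cdh5 held 62.8% of the list's counts at 60.5, 36.2 and 52.4 CPM. Choroid plexus and ependymal genes took 0.0349, 0.0245 and 0.0435%, of which Ttr, the transthyretin gene, was 76.4% (256, 188 and 340.5 CPM).

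Markers of neurons other than granule cells took smaller shares than those of glia. GABAergic interneuron genes took 0.0408, 0.0283 and 0.0377% of the counts, with Gad1 at 147, 97.8 and 127 CPM, Gad2 at 26.7, 13.7 and 25.7 CPM, Pax2, which marks immature interneurons, at 13.1, 10.3 and 16.4 CPM, and the glycine transporter gene Slc6a5 at 3.85, 3.85 and 4.14 CPM. Slc32a1, the vesicular GABA transporter, was at 62.8, 57.5 and 65.1 CPM, though 24.9% of its exon bases lie opposite another gene. Purkinje cell genes took 0.0331, 0.0229 and 0.0279%, of which Gad1, which interneurons share, was 44.3%. The defining Purkinje genes Pcp2 (2.92, 3.1 and 1.66 CPM), Car8 (1.17, 2.11 and 0.118 CPM) and Calb1 (13.5, 9.06 and 11.2 CPM) were low, and Skor2 was listed at 0. Unipolar brush cells, glutamatergic interneurons of the granular layer, were marked by Eomes at 7.93, 18.9 and 9.46 CPM and Lmx1a at 1.4, 0.993 and 0.355 CPM.

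**Figure D4:**
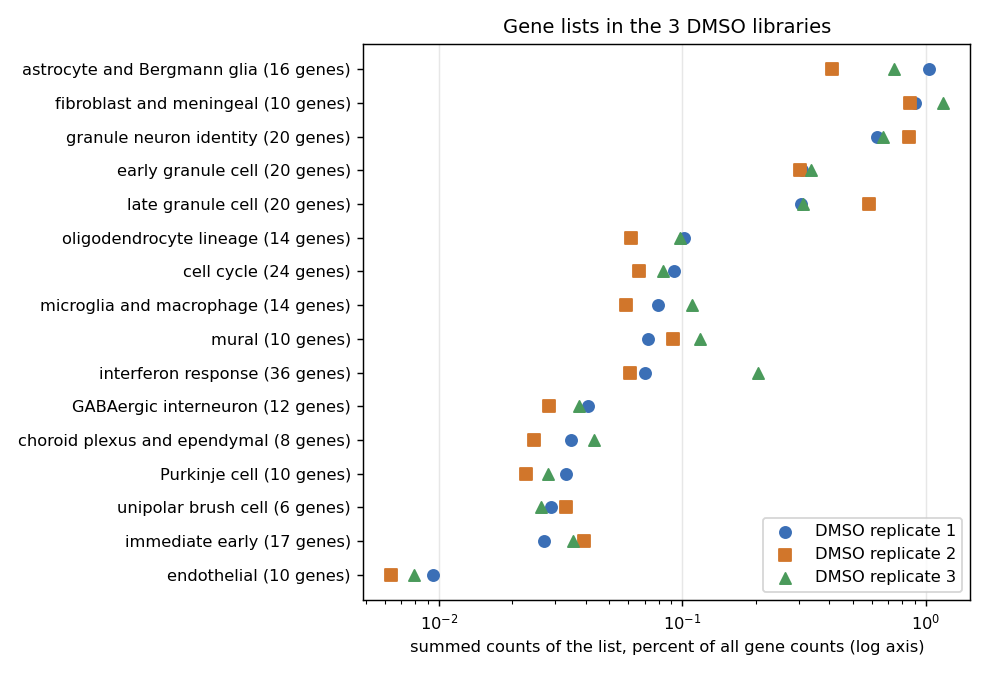
Summed counts of 16 gene lists as percent of all gene counts (log axis), with 1 symbol per DMSO library and the number of listed genes in brackets. Astrocyte, fibroblast and granule lists lie between 0.305 and 1.18%, endothelial genes below 0.01%, replicate 2 (squares) is lowest for most non-granule lists and highest for the late granule list, and replicate 3 (triangles) is set apart for the interferon list.

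The genes that varied most between the libraries included a set that responds to interferon. Of the 15 genes with the highest CV among the 9049 genes at 20 CPM or more, Irf7, Oasl2, Isg15, Usp18, Trim30a and Ifit1 are interferon response genes, and each was highest in replicate 3. Irf7, a transcription factor that amplifies the interferon response, was at 7.23, 6.7 and 68 CPM. Isg15, a ubiquitin-like modifier, had 86, 121 and 642 counts, and Ifit1, which binds foreign RNA, at 25.7, 11.9 and 90.7 CPM. For each of these, replicates 1 and 2 lay far below replicate 3.

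A list of 36 interferon response genes, drawn up after these values were seen and so a description only, took 0.0703, 0.0611 and 0.203% of the counts. All 36 were highest in replicate 3, among them all 32 that were expressed, where replicate 3 was the highest for 30.8% of all expressed genes. The median log2 ratio of replicate 3 over the mean of the other libraries was 1.86 for the expressed members. Oas3, an antiviral synthetase, had 1, 1 and 60 counts in replicates 1, 2 and 3, Mx1 9, 7 and 113, and Rsad2 44, 39 and 364. Irf9, which helps carry the signal to the nucleus, had 36.3, 34.5 and 99 CPM. The receptor and signalling genes had no rise of this size, with a median log2 ratio of 0.13 for the 7 expressed. Of these 7 genes 3 were highest in replicate 3, against 30.8% of all expressed genes. Ifnar1 was at 148, 118 and 103 CPM, Ifnar2 at 24.1, 24.3 and 32.5 CPM and Jak1 at 281, 229.6 and 286 CPM. Ifnb1, the interferon β gene, had no count in any library. Some macrophage genes were, like the interferon response genes, highest in replicate 3. Lgals3, a galectin of activated phagocytes, was at 32.9, 36.1 and 175 CPM, the chemokine gene Ccl6 at 32.9, 39.7 and 208 CPM, and the microglia and macrophage list at 0.0792, 0.0588 and 0.109% of the counts. Their part in the interferon genes was not tested.

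Promoters of 3 of these genes are shown because members that move together can be read side by side. Isg15 lies at chr4:156200769-156201068, minus strand, Ifit1 at chr19:34640639-34640938, plus strand, and Rsad2 at chr12:26456403-26456702, minus strand, in RefSeq windows of build GRCm38.p6. Capitals mark the letters GAAA followed after any 2 bases by GAAA again, on either strand, the core of the interferon-stimulated response element.
Isg15: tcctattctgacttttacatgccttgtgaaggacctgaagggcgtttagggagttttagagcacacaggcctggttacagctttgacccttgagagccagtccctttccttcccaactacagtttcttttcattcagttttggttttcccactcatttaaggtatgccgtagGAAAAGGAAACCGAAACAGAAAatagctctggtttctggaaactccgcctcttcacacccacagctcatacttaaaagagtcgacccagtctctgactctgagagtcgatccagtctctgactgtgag
Ifit1: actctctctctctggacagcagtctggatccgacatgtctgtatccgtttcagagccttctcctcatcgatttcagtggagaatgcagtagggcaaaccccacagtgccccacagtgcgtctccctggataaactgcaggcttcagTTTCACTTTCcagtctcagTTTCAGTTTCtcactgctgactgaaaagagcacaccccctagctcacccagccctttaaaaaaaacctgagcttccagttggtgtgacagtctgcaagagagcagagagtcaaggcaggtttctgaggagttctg
Rsad2: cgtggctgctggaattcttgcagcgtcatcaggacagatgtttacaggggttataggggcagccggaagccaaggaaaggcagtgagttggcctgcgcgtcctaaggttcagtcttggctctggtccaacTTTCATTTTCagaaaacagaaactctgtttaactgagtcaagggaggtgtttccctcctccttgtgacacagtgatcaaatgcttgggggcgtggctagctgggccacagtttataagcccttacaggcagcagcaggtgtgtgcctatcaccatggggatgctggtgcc
Isg15 held 3 overlapping matches, Ifit1 2 and Rsad2 1. Of the 26 listed interferon response genes with a window, 16 held the letters (61.5%), beside 3.39% of all windows. The windows of Irf7 and Oasl2 held none. No late granule or identity gene with a window held them, and 1 of 14 astrocyte genes did.

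**Figure D5:**
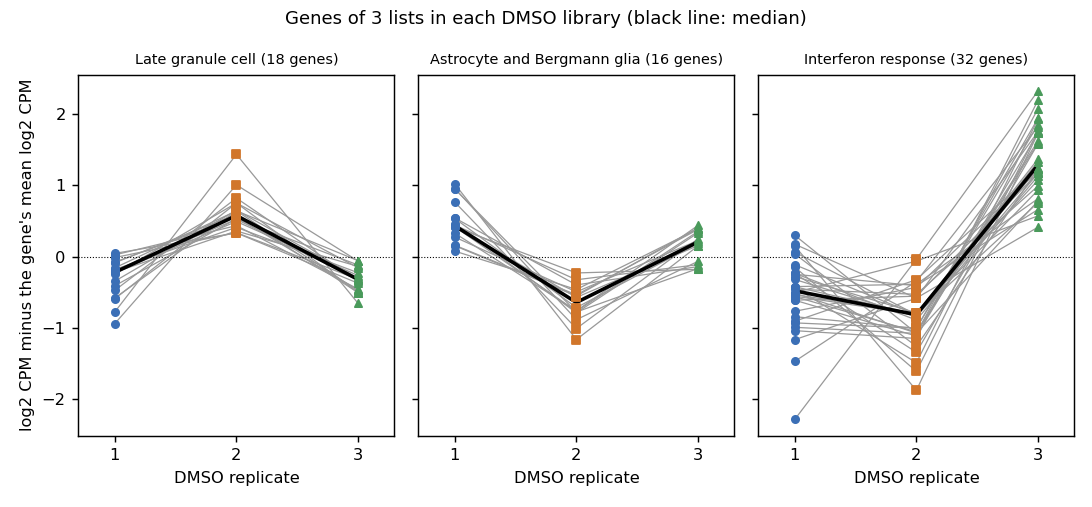
Log2 CPM of each expressed gene minus its own mean over the 3 DMSO libraries, for the late granule cell list, the astrocyte and Bergmann glia list and the interferon response list, with grey lines joining the values of a gene and a black line for the median. The 18 late genes peak in replicate 2, the 16 astrocyte genes are lowest there, and the 32 interferon response genes peak in replicate 3.

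Over the expressed genes the spread between libraries exceeded counting error for most. The median CV of CPM was 0.168, where counting error alone would give 0.0648, and 59.9% of genes had a CV above 2 times that of counting. The median CV was 0.253 for genes at 1 to 2 CPM and 0.322 at 2 to 5 CPM, lay lower in each bin of level from there to 0.113 at 100 to 200 CPM, and was 0.179 for the 47 genes at 1000 CPM or more, which include the mitochondrial, collagen and glial genes. In 2382 genes (15.5%) the highest library was at least 2 times the lowest. Among these, the highest library was replicate 1 for 879, replicate 2 for 560 and replicate 3 for 943. The lowest was replicate 1 for 726, replicate 2 for 1179 and replicate 3 for 477. Over all expressed genes replicate 2 was the lowest for 36.4% and replicate 3 the highest for 30.8%. Across the expressed genes, log2 CPM of any pair of libraries had a Pearson correlation of 0.96 to 0.965, a figure over genes that share length and base composition.

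The other genes of highest CV belonged to small groups. Slc6a13 and Aspg were highest in replicate 1, at 50.7, 4.34 and 10.8 CPM and 51, 4.09 and 14.2 CPM. Cwc22, a splicing factor gene of which mice carry varying numbers of copies, stood at 26.7, 268 and 28 CPM, about 10 times higher in replicate 2. Rpl26 (163, 7.69 and 36.1 CPM), the pseudogene Rps3a3 (143, 35.6 and 0.355 CPM) and Tpm3-rs7 (1.52, 28.3 and 114 CPM) have near-identical copies elsewhere in the genome, which leaves their counts uncertain, as does the short mitochondrial tRNA gene mt-Ts1 (62.4, 1.86 and 2.48 CPM). At the other end stood the 15 genes of lowest CV. Of these, Smarcd1, a chromatin remodelling subunit, was at 82.1, 81.9 and 82 CPM, Zwint at 335, 336 and 336 CPM, Wdr47 at 98, 98.5 and 98.5 CPM, and the cohesin gene Smc1a at 136, 136 and 135 CPM. Farsb, Gm10432, BC005537, Vps52, Maip1, Spcs2, Wrb, Polr2m, Def8, Mrpl37 and Ppm1a completed this set. The CV lay below that of counting error for 13.6% of expressed genes, these 15 among them, so their order carries no weight. Smarcd1, Gm10432 and Wrb share 12.7, 10.1 and 11.6% of their exon bases with a gene on the other strand.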

How the data were processed

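Poly(A)-selected RNA of 3 DMSO-treated CGN cultures was sequenced as read pairs. The authors deposited 1 table of raw read counts per gene symbol and library. The submitters' processing notes name Trimmomatic 0.38, STAR 2.7.2b and build mm10. The counting strand was not given in the sources used here. The 5 counting summary rows were left out, so 39.1 to 41.3% of reads enter the totals. From the deposited counts, CPM was computed on the total over named genes, and TPM from the union of exons in GENCODE M21 (pandas 2.3.3). Expressed means 1 CPM in all 3 libraries. No test was run, since the libraries form 1 group. Values are per library or mean ± SD. The spread was compared with counting error, and the scripts were tested on simulated data. Per gene, the RefSeq promoter window nearest the annotated start was searched on both strands. The members and gene lists were chosen with earlier results of these data known, and the interferon list after seeing the values.

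Named genes were the 25 of highest mean CPM, the leader and next of each family, both genes of each pair, all early and late granule genes, the cell type markers, and the 15 of highest and of lowest CV at 20 CPM or more. Alternatives used edgeR 4.0.16 (TMM) and DESeq2 1.42.0 size factors. The GSK-126 tables were not used. Some of the named genes are not reported here.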

Additional observations from a re-analysis of the deposited data

How the results depend on the processing

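The count of expressed genes ran from 15368 to 15453 under TMM factors, DESeq2 size factors and removal of mitochondrial genes from the total, and from 15662 to 15781 when 1 replicate was left out. It was 12375 at a floor of 5 CPM and 19092 with no floor, each within 1.5 times. Without mitochondrial genes the 100 most abundant genes held 11.6% of the counts in place of 13.0%, more than the SD between libraries, and with a replicate left out they held 12.8 to 13.2%. The number of families with 1 leader throughout was 75, and 83 both with the longest transcript and with no length correction. Leaving out a replicate gave 79 to 88. The leader itself was another gene in 16 of 103 families with the longest transcript and in 27 with CPM. Without replicate 2 it differed in 8 families, among them Slc17a6 for Slc17a7, Gria1 for Gria4 and Ezh2 for Ezh1. The number of pairs with the later gene ahead was 7 to 8 under the length and pseudocount alternatives and 7 to 9 with a replicate left out. The non-neuronal marker share was 1.86 to 2.25% with a replicate left out, and 1.99 and 2.05% without shared markers and without mitochondrial genes. Genes with a CV above 2 times counting made up 59.5 to 59.9% under the other scalings and a mean floor of 1 CPM, and 70.1% at 20 CPM or more. Of 667 further values recomputed, 523 moved by less than the SD between libraries and 144 by more. The 523 include every mean with 1 replicate left out, since such a mean cannot move by more than the SD of the same 3 libraries. The 523 are therefore not a measure of stability. A turned direction could be recorded only for gene pairs with a common direction in every library, and none of these turned.

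Of the limits, 3 libraries of 1 group allow no test. Each library is a separate culture, so culture, animals and library preparation cannot be told apart. The CV from counting error alone was 0.267 for genes at 1 to 2 CPM and 0.0413 at 50 to 100 CPM. The late gene share averaged 0.310% without replicate 2 and 0.401% with it. No paired analysis was possible because only 1 group was used. Reads that fell on no annotated exon outnumbered those assigned in each library, and genes that overlap on opposite strands stay uncertain.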

Other observations

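The libraries differed in the sex-linked genes. The 4 Y-linked genes Ddx3y, Eif2s3y, Kdm5d and Uty were all highest in replicate 2, with Eif2s3y at 26.8, 68.6 and 29.8 CPM and Kdm5d at 26, 57.1 and 28.4 CPM in replicates 1, 2 and 3. Xist, the RNA that silences an X chromosome in female cells, was at 1408, 611 and 970.3 CPM and was lowest in replicate 2, though 11.5% of its exon bases lie opposite another gene. Y-linked genes and Xist thus had opposite orders, and replicate 2 was also the library with the highest late granule share (0.308, 0.582 and 0.312%). The part of sex in any autosomal gene was not tested.

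The lists of metabolic and stress genes differed less between libraries than the astrocyte list did. The 17 cholesterol synthesis genes took 0.202, 0.195 and 0.177% of the counts, led by Hmgcs1 at 503, 416 and 422 CPM and with Sqle at 235, 251 and 244 CPM. The 12 genes of the integrated stress response took 0.0652, 0.0634 and 0.0734%, with Atf4, its central factor, at 110.2, 157 and 146 CPM and Ddit3 at 17.9, 22.5 and 29 CPM. Phgdh, a serine synthesis enzyme that astrocytes express strongly, was at 188, 91 and 148 CPM and lowest in replicate 2, as the astrocyte genes were. Cytosolic ribosomal protein genes took 1.39, 1.56 and 1.84% of the counts, and reads that also align to their many pseudogenes were not counted.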
